A study of Mus musculus with 6 samples.

Results

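The miR-297, miR-466, miR-467 and miR-669 microRNAs (miRNAs) form a large rodent group of closely related sequences, most of them encoded in a cluster inside Sfmbt2, a gene for a Polycomb-group protein that is imprinted in the mouse placenta. The 48 probes described here are all probes on the array whose name starts with one of these 4 family numbers, whatever the letter, arm or star suffix, out of 707 mouse miRNA probes. They comprise 4 miR-297, 17 miR-466, 11 miR-467 and 16 miR-669 probes.

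All probes were read on 6 arrays of whole dorsal skin. The mice were C3H/HeJ, an inbred strain prone to alopecia areata (AA), in which immune cells attack the growing hair follicle. The first group is 3 arrays of skin with hair loss from mice with spontaneous AA. The second is 3 arrays of normal, haired skin taken from mice without AA, called unaffected. The sources used here do not tie arrays to single mice, so the p-values reflect array-to-array spread and that spread may be technical. Whole skin mixes epidermis, follicles, dermis, fat and muscle, and fewer cells of a type and less RNA per cell cannot be told apart.

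A miRNA is cut from a hairpin precursor, which can yield a product from each arm (5p and 3p, or an unmarked and a star name in older naming). It recognises its targets mainly through its seed, bases 2 to 8 from the 5′ end. In this group the precursors are built on short repeats, so that one arm is rich in UG dinucleotides and the opposite arm in CA dinucleotides. The cluster is best known for its strong expression in mouse placenta and embryonic stem cells, and in mouse heart progenitors miR-669a restrains the skeletal muscle programme.

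RefSeq (GRCm38.p6) places 71 of the 81 miRNA genes of these 4 families within the span of Sfmbt2 on chromosome 2. By name, 34 probes match genes that lie there alone, 5 match genes both there and elsewhere, 7 match genes elsewhere alone, and miR-466a-3p and miR-466a-5p matched no gene. The matching used gene names and listed aliases only, so a miR-466a gene listed under another name would be missed. The label of an Sfmbt2 cluster therefore holds for most but not all of these probes.

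In the skin samples 4 of the 48 probes stood above background. They are shown here as the miRNA sequences they target, with the seed in capitals.
miR-467f: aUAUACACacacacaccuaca
miR-466f-3p: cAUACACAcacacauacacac
miR-466i: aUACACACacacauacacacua
miR-669f: cAUAUACAuacacacacacguau

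These 4 sequences have 4 different seeds, and no other member shares one of them. miR-467f is listed by RefSeq at chr11:69635419-69635439 on the minus strand and miR-466i, there named miR-466i-3p, at chr13:17747552-17747573 on the plus strand, both outside Sfmbt2 (GRCm38.p6). miR-669f matches 1 gene, within Sfmbt2, and miR-466f-3p matches 4 genes, 3 of them within Sfmbt2 and the other on chromosome 13. Counted by place, 1 of the 34 probes with genes within Sfmbt2 alone stood above background on at least 3 arrays (2.94%), against 2 of the 7 with genes elsewhere alone (28.6%) and 1 of the 5 with genes in both places.

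Detection was judged on each array against its own 145 empty or background control spots. A probe was called detected where the mean raw intensity of its 5 spots exceeded the 95th percentile of these spots, a limit that 8 of the 145 empty spots (5.52%) themselves exceed. That share is set by the percentile and holds for single spots. It is not the rate at which a mean of 5 spots without signal would pass. By this limit 5, 3 and 5 of the 48 members were detected on AA replicates 1 to 3, against 4, 8 and 7 on unaffected replicates 1 to 3. Of all 707 miRNA probes, 147, 115 and 157 were detected on the AA arrays, against 97, 202 and 202 on the unaffected arrays. Of the members, 4 were detected on at least 3 of the 6 arrays (8.33%), where the share of all miRNA probes was 22.2%. On at least 1 array 9 members were detected (18.75%), where the share of all probes was 35.2%. The limits were 240, 599 and 572 raw units on AA replicates 1 to 3, against 344, 197 and 229 on unaffected replicates 1 to 3.

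The empty spots themselves differed. On AA replicate 2 and unaffected replicate 1 the median empty spot (490 and 274) was clearly brighter than the median miRNA spot (399 and 168), so that a member without signal falls below a ratio of 1 there. The ratio of raw intensity to the median empty spot was lower on the AA arrays for bright probes in general: over the 88 miRNA probes detected on all arrays its median was 3.33, 3.24 and 1.46 on AA replicates 1 to 3, against 4.20, 16.9 and 11.4 on unaffected replicates 1 to 3. The epidermal miRNAs miR-203 and miR-205, which mark keratinocytes, were detected on all 6 arrays. Between any 2 arrays, Pearson's r of the normalized values lay between 0.73 and 0.92 across the 157 tested miRNAs, which are not independent replicates.

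miR-467f had the highest ratio of the members, at 1.72, 1.497 and 1.37 times the median empty spot on AA replicates 1 to 3, against 3.34, 17.9 and 4.88 on unaffected replicates 1 to 3. Its unaffected arrays all lay above its AA arrays, and unaffected replicate 2 stood far above the rest.

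miR-466f-3p stood at 1.46, 1.30 and 1.36 on the AA arrays, against 3.23, 12.3 and 3.88 on the unaffected arrays. miR-466i stood at 1.30, 1.27 and 1.19 on the AA arrays, against 2.52, 10.01 and 4.14 on the unaffected arrays. Both followed the order of miR-467f between groups, and both were detected on all 6 arrays.

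miR-669f was the dimmest of these, at 1.22, 1.11 and 1.15 on the AA arrays, against 2.24, 3.78 and 2.40 on the unaffected arrays. It was below the limit on AA replicate 2. For all 4 probes each AA ratio was below each unaffected ratio, a pattern shared by 31.8% of the 157 tested miRNAs.

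**Figure D1:**
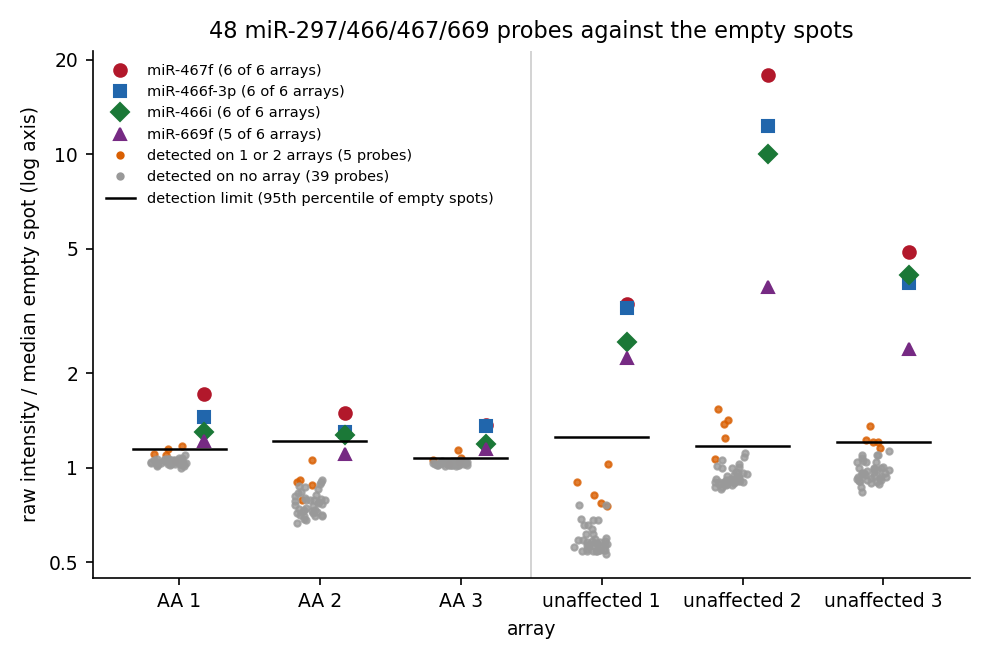
Raw intensity divided by the median empty spot of the same array (log axis) for the 48 member probes on the 3 AA and 3 unaffected arrays, with the detection limit of each array as a black bar. The 4 coloured symbols lie clear of the grey probes on the unaffected arrays, where miR-467f reached 17.9 on replicate 2. On AA replicate 2 miR-669f is under the limit, and on AA replicate 3 it lies level with miR-466g (1.15 and 1.14).

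A further 5 members crossed the limit on 1 or 2 arrays. miR-467b*, miR-467a-1* and miR-466f, all with genes in the cluster, were detected on unaffected replicates 2 and 3 and on no AA array, and their highest ratios were 1.55, 1.24 and 1.38. miR-466g was detected on AA replicate 3 (1.14) and unaffected replicate 2 (1.42). miR-669c was detected on AA replicate 1 alone (1.17). The highest ratios of these 5 thus ran from 1.17 to 1.55, a range that also holds AA ratios of each of the 4 members above background.

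The other 39 members were detected on no array, the 4 miR-297 probes among them. Their ratios ran from 0.997 to 1.10, from 0.665 to 0.918 and from 1.01 to 1.06 on AA replicates 1 to 3, and from 0.532 to 0.763, from 0.859 to 1.12 and from 0.835 to 1.13 on unaffected replicates 1 to 3. Their medians of 1.04, 0.765 and 1.03 on the AA arrays, and of 0.573, 0.922 and 0.964 on the unaffected arrays, were close to those of the undetected probes of all other miRNAs, at 1.02, 0.753 and 1.02 on the AA arrays and 0.591, 0.927 and 0.956 on the unaffected arrays. Both sets were picked as below the limit on every array, so the closeness of their medians is in part set by that choice. The highest mean ratios among the 39 were those of miR-466b-3-3p (0.959), miR-466d-3p (0.950) and miR-466j (0.948). A level below the limit was not detectable on these arrays, which does not show that the miRNA is absent.

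Among the undetected members are those with the most gene copies: miR-669a, with 12 genes within Sfmbt2, miR-467a, with 10, and miR-466b-5p, with 8. Their mean ratios were 0.936, 0.933 and 0.879.

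Members were chosen by family name, and these families are built on such repeats, so repeat content is not independent of the choice. Within the families, the members above background share a long uninterrupted run of alternating C and A. The run is in capitals in the following sequences, which are the 9 members with a run of at least 8 bases, in order of run length.
miR-467f: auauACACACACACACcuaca
miR-466f-3p: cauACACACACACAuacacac
miR-466i: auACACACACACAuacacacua
miR-669f: cauauacauACACACACACguau
miR-467g: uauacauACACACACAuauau
miR-466g: auacagacacaugCACACACA
miR-467a-1*: auauacauACACACACcuacac
miR-467b*: auauacauACACACACcaacac
miR-467e*: auauacauACACACACcuauau

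The run is 12 bases in miR-467f, 11 in miR-466f-3p and miR-466i, and 10 in miR-669f, and the mean ratios of these probes over the 6 arrays were 5.13, 3.92, 3.41 and 1.98. Unaffected replicate 2 carries much of these means: without it they were 2.56, 2.25, 2.09 and 1.62. The brightness of different probes does not rank the abundance of their miRNAs. At the main minimum of 8 bases, 4 of the 9 members with a run were detected on at least 3 arrays, and 0 of the 39 without. At the alternative minimum of 10 bases it was 4 of 4, and 0 of the 44 with a shorter run. Over the 9 members with a run of at least 8 bases the median of the mean ratios was 1.14, and over the 39 without one it was 0.880. miR-467g, whose run is 9 bases, was detected on no array (mean ratio 0.931). Of the 659 other miRNA probes, 0 have a CA run of 8 bases or more, so these arrays hold no comparison probe outside the families at that length. At a minimum of 6 bases 9 of these other probes have a run, 1 of them detected on at least 3 arrays. Their median mean ratio was 0.898, beside 0.910 over the other miRNA probes without such a run.

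The closest pair across the limit was miR-467f and miR-467a-1*. Aligned from the 5′ end, with positions counted from 1 there, they differ by the substitution C8U (miR-467f first), and miR-467a-1* is 1 base longer at its 3′ end. This shortens the run to 8 bases. The ratios of miR-467a-1* were 1.05, 0.791 and 1.06 on AA replicates 1 to 3, and 1.03, 1.24 and 1.23 on unaffected replicates 1 to 3, where miR-467f reached 3.34, 17.9 and 4.88. miR-467b* and miR-467e*, which differ from miR-467f by 3 edits each and also have runs of 8 bases, had mean ratios of 1.14 and 0.902.

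miR-466f-3p and miR-466i differ by 3 edits and the other pairs among the 4 by 5 to 7. Cross-hybridisation between such similar sequences was not tested, and the 4 probes are not independent measurements.

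**Figure D2:**
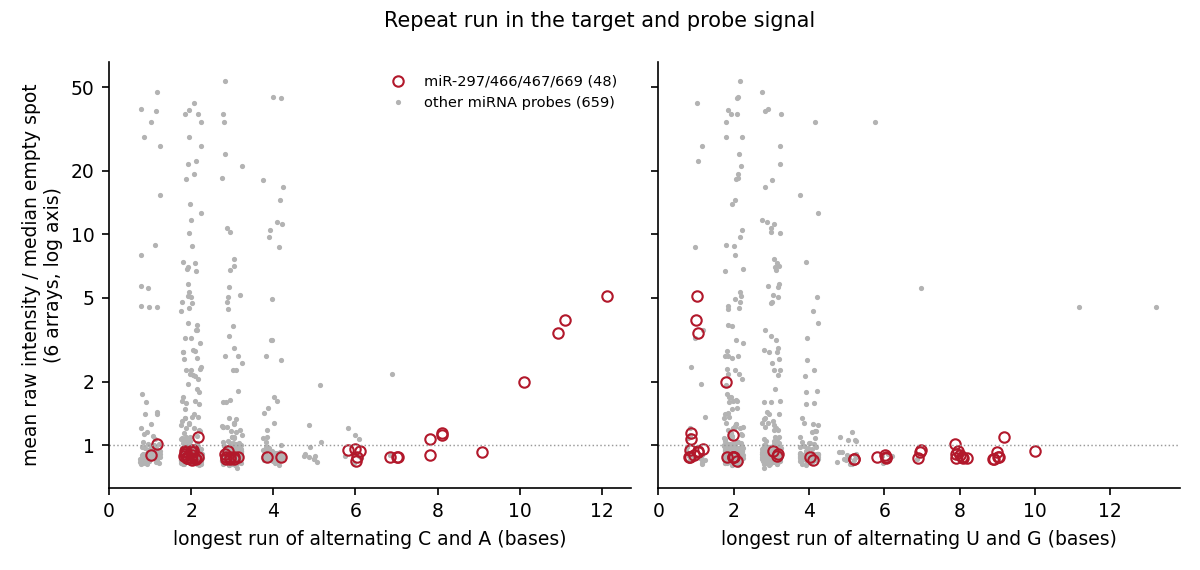
Mean raw intensity over the median empty spot across the 6 arrays (log axis) against the longest run of alternating C and A (left) or U and G (right) in the target, for the 48 members and 659 other miRNA probes. Members with CA runs of 10 to 12 bases lie at 1.98 to 5.13 (1.62 to 2.56 without unaffected replicate 2), and members with UG runs of 8 bases or more at 0.862 to 1.09. Points are spread sideways at random within each run length.

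Of the 15 members with a UG run of at least 8 bases 0 were detected on at least 3 arrays and 2 on at least 1, miR-466f (2 arrays) and miR-669c (1 array). Of the 9 members with such a CA run 7 were detected on at least 1 array, and of the 24 with neither run 0 were. miR-466c-5p, whose run is 10 bases, had a mean ratio of 0.934. Outside the families 3 miRNA probes have such a run. miR-574-5p and miR-1187, with runs of 13 and 11 bases, were detected on all 6 arrays with mean ratios of 4.53 and 4.52 (2.99 and 2.93 without unaffected replicate 2). miR-672, with a run of 8 bases, was detected on no array (mean ratio 0.915). These 3 were chosen for mention after their values were seen. The sequences are given with the UG run in capitals to set the undetected member beside them.
miR-466c-5p: gaUGUGUGUGUGcauguacaua
miR-574-5p: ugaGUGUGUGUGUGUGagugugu
miR-1187: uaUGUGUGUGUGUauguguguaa

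Both arms of a precursor were on the array for 9 miRNA names. In 6 of the 9 pairs neither arm was detected on any array. In the other 3 pairs the CA-rich arm was detected and the opposite arm on no array: miR-466f-3p on 6 arrays, miR-467a-1* on 2 and miR-467b* on 2, beside miR-466f-5p, miR-467a and miR-467b. A further probe, named miR-466f without an arm, matches the same 4 genes as miR-466f-3p and lies 2 edits from miR-466f-5p. It has a UG run of 9 bases and was detected on 2 arrays, with a mean ratio of 1.09.

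By seed, the 48 members fall into 29 groups, of which 11 hold more than 1 probe and together 30 probes. The largest shared seed is AUACAUA, in miR-297a*, miR-466a-3p, miR-466b-3-3p, miR-466d-3p and miR-467g. It is followed by AUGUGUG, in miR-466a-5p, miR-466b-5p, miR-466c-5p and miR-466e-5p, and by UAUACAU, in miR-467a-1*, miR-467b*, miR-467e* and miR-669m. None of the 11 shared seeds contains a probe detected on at least 3 arrays.

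AA was compared with unaffected skin for the 157 miRNAs detected on at least 3 arrays, 4 of them members, on background-corrected, quantile-normalized log2 intensities (limma). Of the members 0 passed an adjusted p of 0.05 as higher or lower, where 0% of all tested miRNAs were called higher and 0% lower. At an unadjusted p under 0.05 limma gave 0 members and 12 of the 157 miRNAs, 8 of them lower in AA (5.1%). The means of all 4 members were lower in AA, as were those of 53.5% of the tested miRNAs. Their median log2 difference was -0.64, beside -0.039 over all tested miRNAs.

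miR-466i had the largest difference. Its normalized log2 values were 8.04, 8.14 and 8.95 in AA replicates 1 to 3, against 9.36, 9.40 and 8.95 in unaffected replicates 1 to 3. The groups met in a tie between AA replicate 3 and unaffected replicate 3, a result of equal ranks under quantile normalization, and otherwise did not overlap. AA skin averaged 8.38 ± 0.50, against 9.24 ± 0.25 in unaffected skin (SD, n = 3 each). The log2 difference of -0.86 (SE 0.40, 95% interval -1.74 to 0.027) is a signal 1.81-fold lower in AA, and it did not pass the test (limma adjusted p = 0.588). With the median empty spot subtracted in place of normexp the log2 difference was -1.59, a signal 3.00-fold lower (limma adjusted p = 0.638), and it was -1.27 for miR-669f and -0.99 for miR-466f-3p.

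miR-467f stood at 8.81, 8.54 and 9.71 in AA replicates 1 to 3, against 9.85, 10.15 and 9.15 in unaffected replicates 1 to 3. AA replicate 3 lay above unaffected replicate 3, so the groups overlapped. The log2 difference was -0.70 (SE 0.45, 95% interval -1.69 to 0.30, limma adjusted p = 0.681).

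miR-466f-3p stood at 8.47, 8.20 and 9.67 in AA replicates 1 to 3, against 9.77, 9.63 and 8.71 in unaffected replicates 1 to 3, also with overlap. Its log2 difference was -0.59 (SE 0.49, 95% interval -1.68 to 0.50, limma adjusted p = 0.727). miR-669f stood at 7.81, 7.79 and 8.36 in AA, against 9.25, 8.36 and 8.10 in unaffected skin, where replicate 1 was the high array. Its log2 difference was -0.58 (SE 0.42, 95% interval -1.52 to 0.36, limma adjusted p = 0.712). Scaling by the 75th percentile of probes seen on every array turned it to 0.15, where the median over all tested miRNAs was 0.53.

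In each of the 4 members AA replicate 3 was the highest AA array and unaffected replicate 3 the lowest unaffected array. The complete separation of the groups seen in the ratios to the empty spots was thus met by 0 of the 4 after normalization between arrays, where 7.01% of the tested miRNAs had every AA array below every unaffected array and 4.46% every AA array above. On single arrays the SD of the 5 spots of a probe, on the log2 scale of the raw intensity, was 0.089 to 0.47 for these 4, which is not the scale of the normalized values above.

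Position within an array does not change with scaling of the array. Quantile normalization sets each value by its rank on the array, so the places restate the normalized values and are not a separate check. Among the 157 tested miRNAs, ordered from the brightest, miR-467f was at place 86, 94 and 58 on AA replicates 1 to 3, against 53, 46 and 74 on unaffected replicates 1 to 3. miR-466i was at place 118, 110 and 80 on the AA arrays, against 68, 66 and 80 on the unaffected arrays. miR-466f-3p was at place 97, 107 and 60 in AA, against 56, 60 and 87 in unaffected skin. miR-669f was at place 130, 122 and 98 in AA, against 72, 100 and 110 in unaffected skin. Replicate 3 of each group again brings the groups together.

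**Figure D3:**
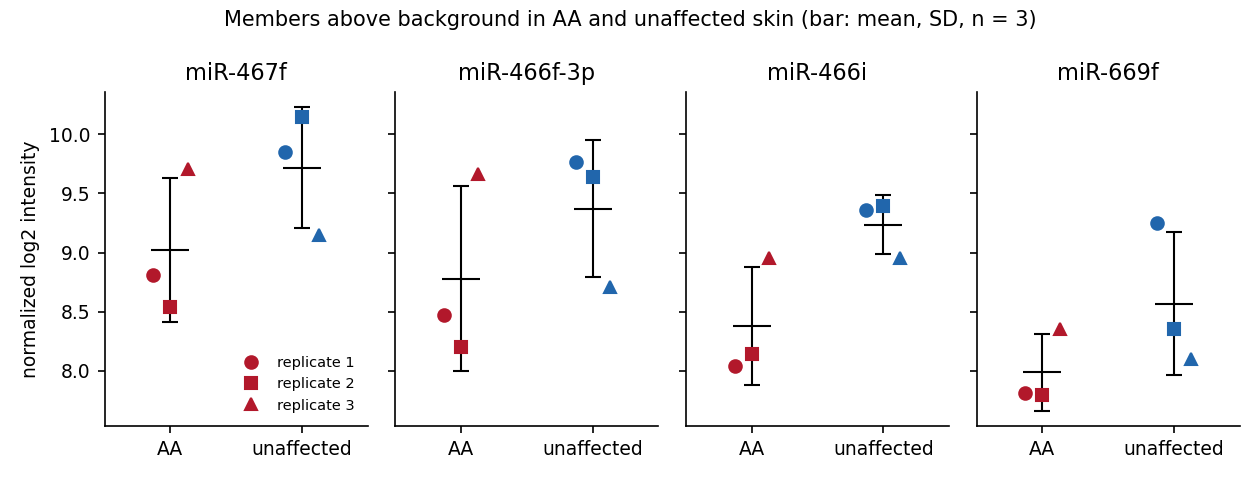
Normalized log2 intensity of the 4 members above background, with a point per array and the mean and SD of each group (n = 3). All 4 means are lower in AA, and AA replicate 3 lies level with or above the lowest unaffected array in each panel.

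The value table deposited by the authors, which is scaled between arrays by a method not given in the sources used here, also had lower AA means for these members. In the authors' deposited table miR-467f had values of 328, 303 and 700 in AA replicates 1 to 3, against 821, 1191 and 419 in unaffected replicates 1 to 3. In the authors' deposited table miR-466i reached at most 351 in AA and at least 368 in unaffected skin, so these values do not overlap. Those of miR-467f, miR-466f-3p and miR-669f did. In AA replicate 3 against unaffected replicate 3, miR-466f-3p had 653 against 330 and miR-669f 222 against 201. The share of all tested miRNAs without overlap in that table was not counted. The log2 difference of miR-466i on these values was -1.29, and the limma adjusted p 0.464.

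**Figure D4:**
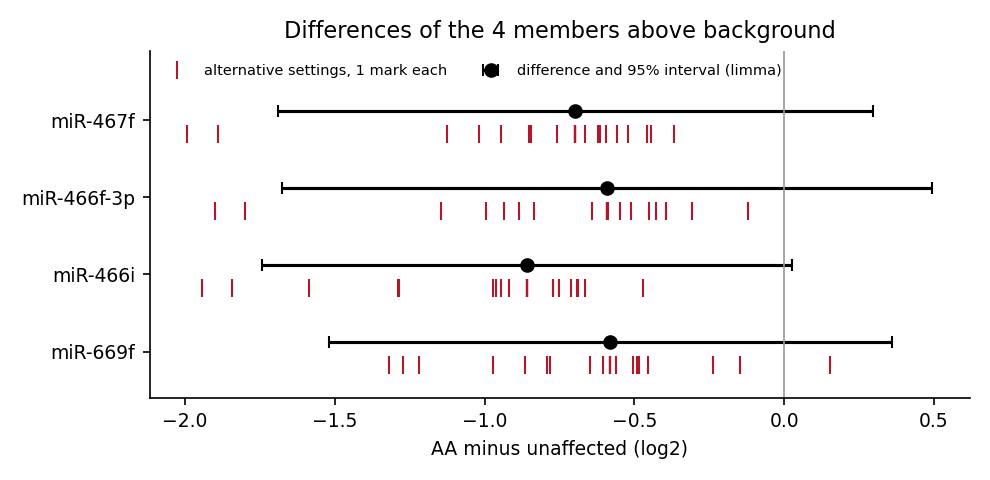
Log2 difference (AA minus unaffected) of the 4 members with its 95% interval from limma (black), and the difference under each alternative setting (red marks). All 4 intervals include 0, and the marks of 3 of the 4 stay below 0 throughout, with 1 mark of miR-669f at 0.15.

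Other groups of related setting were counted beside these. Of the probes of the imprinted Dlk1-Dio3 cluster, a second large mouse miRNA cluster at an imprinted locus, 2 of 70 were detected on at least 3 arrays (2.86%). Of the pluripotency cluster miR-290 to miR-295, 1 of 14 was (7.14%), and of the imprinted Gnas-linked miR-296 and miR-298, 2 of 3 (66.7%). Limma called 0 of these as different in AA. The long UG-run probes miR-574-5p and miR-1187 had log2 differences of 0.23 (SE 0.43) and -0.15 (SE 0.45), with limma adjusted p of 0.884 and 0.961.

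Marker lists of skin cell types were measured beside the members. The probe counts of these lists include star-strand probes. In the keratinocyte and skeletal muscle lists only star-strand probes fell short of detection on at least 3 arrays. The mean over the tested keratinocyte miRNAs ran from 9.70 to 10.12 on the AA arrays and from 9.91 to 10.59 on the unaffected arrays, with 7 of 12 probes detected on at least 3 arrays. The mean of the skeletal muscle miRNAs ran from 10.29 to 11.47 on the AA arrays and from 10.41 to 12.61 on the unaffected arrays (4 of 5 probes). The mean of the lymphocyte miRNAs ran from 8.53 to 9.45 on the AA arrays and from 8.44 to 9.33 on the unaffected arrays (3 of 9 probes). The endothelial miRNAs, 1 of 2 probes, ran from 8.71 to 9.60 on the AA arrays and from 9.02 to 11.24 on the unaffected arrays, and both red cell probes from 8.17 to 12.52 on the AA arrays and from 10.58 to 11.50 on the unaffected arrays. The median log2 differences of the tested probes were -0.83 for skeletal muscle, -0.39 for keratinocyte, 0.17 for lymphocyte, -0.42 for red cell and -1.01 for endothelial miRNAs, beside -0.64 for the members. Several marker lists were thus lower in AA by the median along with the members. All of these ranges overlapped between groups, limma called 0 of the markers, and their part in the lower means of the members was not tested.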

How the data were processed

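Per the labels' protocols, small RNA of the skin samples received a poly(A) tail and a tag stained with Cy3, and a service provider ran the µParaflo chips. Biotin-labelled cRNA is named there too. The authors deposited 1 scanner file per array with the mean raw intensity of each spot, without background subtraction or scaling (3968 spots, 3535 of them for 707 miRNA probes, 5 spots each). Image software, miRBase release and genome build: not given in the sources used here. The authors also deposited a value table of 755 probes as processed intensity, used as an alternative. Its column medians were 37.8, 44.3 and 34.2 for AA replicates 1 to 3 and 43.2, 38.0 and 39.0 for unaffected replicates 1 to 3. Across the 88 probes above the limit on every array, log2 table values correlated with log2 raw intensity at r = 0.956 to 0.999 per array. Their slope on log2 raw intensity above the median empty spot was 0.821 to 1.00, so the table is not on a log scale, and whether it is strictly linear and how it was scaled stay unknown.

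Raw intensities were corrected with normexp (offset 50, all spots), which compresses differences of dim probes, and the log2 values of its 5 spots were averaged for each probe. Arrays were quantile-normalized over the 707 probes with limma 3.58.1 (R 4.3.3). Probes above the 95th percentile of the empty spots on at least 3 of 6 arrays were tested (lmFit, eBayes, two-sided, Benjamini-Hochberg, threshold 0.05). The limma step alone was tested on simulated log2 values drawn independently for each array, which does not cover background correction or normalization. The number of arrays limits the precision.

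Groups and replicate numbers come from the sample descriptions. Equal replicate numbers are not said to mark the same animal, and arrays were fitted without a block. Every member in the fit, every member detected on fewer arrays and the 3 brightest undetected members are named. The members, lists and tests were chosen with earlier results of these data known. The alternatives varied background correction, normalization, detection limit, filter, eBayes options and spot summary, took the deposited table, removed a GC trend, added a replicate block, or dropped 1 array at a time. No slide is named in the files, so no slide block could be fitted. Sequences are the targets listed with the probes. Exact RefSeq entries (GRCm38.p6) were found for 7 of the 48, and 46 matched a RefSeq gene by name.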

Additional observations from a re-analysis of the deposited data

How the results depend on the processing

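The members called stayed at 0 under the 23 alternatives, with the smallest adjusted p (limma) at 0.0708, reached by scaling on the 75th percentile over all probes. All 4 members had lower means in AA under each alternative that gave them a value, except miR-669f at 0.15 when the 75th percentile was taken over probes seen on every array. The median tested miRNA was then at 0.53, from which miR-669f lay at -0.37. The members' median log2 difference of -0.64 became -1.82 without normalization between arrays and -1.92 when scaled on the 75th percentile over all probes. The median tested miRNA was at -0.84 and -0.95 there, and the members lay at -0.98 from it under both. With the median empty spot subtracted the members' median was -1.15 while the median tested miRNA stayed at -0.018. miR-466i was then at -1.59, miR-669f at -1.27, miR-467f at -1.02 and miR-466f-3p at -0.99. With single arrays left out the members' median ran from -1.14 (without AA replicate 3) to -0.47 (without AA replicate 2). With AA replicate 2 and unaffected replicate 1 both left out, a choice made after seeing the data, it was -0.26.

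Calls among all tested miRNAs ran from 0 to 5 with single arrays left out (5 without unaffected replicate 1, 1 without unaffected replicate 2) and were 5 with AA replicate 2 and unaffected replicate 1 both left out. None of them was a member. The cause was not tested.

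The count of 4 members detected on at least 3 arrays was 4 with each array left out, 3 on all 6 arrays and 9 on at least 1 array. The same 4 were kept with every other detection limit tried, joined by miR-466g with the median of spots, and by miR-466g and miR-467b* with a limit set from the dimmer miRNA probes (added after seeing the data). The median of the mean ratios was 0.950 with a CA run of at least 6 bases and 3.66 with at least 10. With at least 8 bases it ran from 1.06 (without unaffected replicate 2) to 1.1995 (without unaffected replicate 1) with single arrays left out, added after seeing the data.

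With the replicate number as a block, 0 members and 0 miRNAs were called and the difference of miR-466i was -0.86 (limma adjusted p = 0.644). The deviations of arrays with equal replicate numbers correlated at 0.14, -0.10 and -0.12. Deviations from the means of such small groups cannot decide whether equal numbers mark paired arrays. Signal over background limits the result for 44 of the 48 members. It also bears on the tested members, whose ratios to the median empty spot were low on every AA array. Among them, miR-669f was below the detection limit on an AA array.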
